A study of Mus musculus with 8 samples.

Results

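Genes of the Polycomb and DNA methylation systems, both of which silence chromatin, were followed in mouse skin fibroblasts that had been transfected with a miR-127-3p mimic. They were Ezh2, Ezh1, Suz12, Eed, Bmi1, Cbx7 and Kdm6b of the Polycomb system, and Dnmt1, Dnmt3a and Uhrf1 of the DNA methylation machinery. The 10 genes were taken by symbol, with every probe of each, from 36717 genes or unnamed transcripts on the array. They had 14 probes, 9 of the 10 genes had a probe that could be tested, and 17093 genes or unnamed transcripts were tested in all.

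Dermal cells came from the skin of newborn C57BL/6 mice, freed with dispase and collagenase and grown in DMEM with serum. The 4 control samples received control oligonucleotides (samples 1, 3, 6 and 8) and the 4 others the mimic (samples 2, 4, 5 and 7), and no time after transfection is given in the sources used here. For controls 3 and 6 the treatment label names both kinds of oligonucleotide, while title and source name say control; results were also computed without these 2 arrays, and the values are given where a call or count moved. No label says whether the samples came from separate animals or isolations, so p-values measure only the spread between these samples, which may be technical. A mimic is a synthetic RNA that delivers the microRNA in excess, and no array of untransfected cells was analysed here.

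The Polycomb system writes repressive marks on histones. Polycomb repressive complex 2 (PRC2) holds a methyltransferase, Ezh2 or Ezh1, together with Suz12 and Eed, and methylates histone H3 at lysine K27. Polycomb repressive complex 1 (PRC1) ubiquitinates histone H2A; Bmi1 is one of its core subunits, and Cbx7 is a subunit that binds the mark of PRC2. Kdm6b removes that mark. Dnmt3a places methyl groups on unmethylated CpG sites, Dnmt1 copies the methylation pattern onto the new strand after replication, and Uhrf1 recognises hemimethylated DNA and brings Dnmt1 to it. Ezh2, Dnmt1 and Uhrf1 are known to be more abundant in dividing cells, and Ezh1 in resting ones.

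The mimic carries the mature strand of miR-127-3p, whose 22 bases lie on the plus strand at chr12:109592888-109592909 of GRCm38.p6. It is shown because it is the reagent that separates the groups, with its seed (bases 2 to 8) in capitals.
mmu-miR-127-3p: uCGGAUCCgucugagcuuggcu

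Promoter windows of RefSeq (GRCm38.p6, 250 bases before to 50 after each transcript start) were found for 9 of the 10 genes, 14 windows in all; none was listed for Kdm6b. They were searched on both strands for an E2F motif, TTTNNCGC, a form of the site of the factors that switch on replication genes, and for the CHR motif, TTTGAA, an element of many cell cycle promoters; neither motif contains the other. The E2F motif stood in 1698 of 32851 RefSeq windows of this length (5.2%) and the CHR motif in 17.9%. The E2F motif was found in 4 of the 9 genes, Ezh2, Suz12, Dnmt1 and Uhrf1, which are all among the genes that fell with the mimic (values below). It was not found in the windows of Ezh1, Eed, Bmi1, Cbx7 and Dnmt3a, of which Bmi1 and Dnmt3a fell too. The CHR motif was found in Suz12, Eed, Cbx7 and 1 window of Dnmt1. A match is a description of these letters, not a measured binding site. The shares over all windows count windows, while the 4 of 9 counts genes, some with more than 1 window, so they are unlike measures. The E2F motif holds a CpG, and no share was taken over CpG-rich windows alone.

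The windows of Ezh2, Ezh1, Dnmt1 and Uhrf1 are printed, the first pair because these alternative catalytic subunits moved in opposite directions and the second because these partners fell together. Capitals mark the E2F motif on either strand; the Ezh1 window has none. The Ezh2 window is chr6:47594981-47595280 on the minus strand, the Ezh1 window chr11:101226414-101226713 on the minus strand, the Dnmt1 window chr9:20952574-20952873 on the minus strand and the Uhrf1 window chr17:56304063-56304362 on the plus strand. Dnmt1 has 3 windows and Uhrf1 has 2; those shown hold the most matches and, for Uhrf1, the more CpG-rich of the windows with 1 match.
Ezh2: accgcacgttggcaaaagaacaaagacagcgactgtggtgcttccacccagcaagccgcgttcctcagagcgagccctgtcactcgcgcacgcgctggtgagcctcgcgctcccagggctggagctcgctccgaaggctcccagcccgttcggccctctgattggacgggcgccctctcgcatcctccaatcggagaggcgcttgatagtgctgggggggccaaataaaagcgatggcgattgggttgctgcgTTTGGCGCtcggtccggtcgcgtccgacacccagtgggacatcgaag
Ezh1: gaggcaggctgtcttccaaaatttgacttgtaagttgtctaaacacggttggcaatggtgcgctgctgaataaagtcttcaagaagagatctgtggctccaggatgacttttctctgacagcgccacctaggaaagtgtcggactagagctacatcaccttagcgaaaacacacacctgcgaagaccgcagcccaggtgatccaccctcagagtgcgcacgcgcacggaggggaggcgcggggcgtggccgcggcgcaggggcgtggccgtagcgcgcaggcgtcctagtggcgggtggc
Dnmt1: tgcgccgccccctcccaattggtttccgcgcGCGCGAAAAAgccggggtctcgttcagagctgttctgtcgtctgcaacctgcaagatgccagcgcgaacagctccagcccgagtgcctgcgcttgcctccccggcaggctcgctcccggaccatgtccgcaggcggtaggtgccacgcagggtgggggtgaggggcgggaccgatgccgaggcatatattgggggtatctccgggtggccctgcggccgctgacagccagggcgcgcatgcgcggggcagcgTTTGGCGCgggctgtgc
Uhrf1: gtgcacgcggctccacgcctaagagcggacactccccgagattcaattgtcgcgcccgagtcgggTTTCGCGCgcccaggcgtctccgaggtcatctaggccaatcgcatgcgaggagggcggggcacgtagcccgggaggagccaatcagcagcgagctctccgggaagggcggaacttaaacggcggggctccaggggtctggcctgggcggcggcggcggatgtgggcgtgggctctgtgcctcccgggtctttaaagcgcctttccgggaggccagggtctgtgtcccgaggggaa
The Ezh2 match begins at base 4 relative to the start, the Dnmt1 matches at -219, -217 and 34, and the Uhrf1 match at -185. The Ezh2 and Dnmt1 windows held 10.33 and 11.0 CpG per 100 bases and the Ezh1 window 7.67, against a median of 2.33 over all windows.

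Signals are given as log2 of the processed intensity minus the array's 75th percentile, so that a probe at that percentile has the value 0. One probe stands for each gene, the brightest of those tested, and levels of different genes are not set against each other, since probes differ in brightness for the same amount of RNA. Fold changes are log2 values of mimic minus control from limma, with the standard error (SE), a 95% interval and a p adjusted by the Benjamini-Hochberg method over all 17093 features; a gene was called at an adjusted p under 0.05. Fewer cells with a transcript and less of it per cell cannot be told apart in such bulk RNA.

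The labelled cell type was checked against its markers. All 11 fibroblast markers were tested, with a mean log2 signal over the list of 5.45 to 5.99 in controls and 5.74 to 6.09 with the mimic; 2 rose, 2 fell and 7 were not called. Markers of macrophages and other leukocytes moved with the groups: 8 of 10 tested rose, none fell, and their summed level was 36.3 to 45.7 in controls and 64.8 to 78.2 with the mimic, in units of the array's 75th percentile. Among them Lyz2 rose by 1.79 and Csf1r, a receptor found on macrophages, by 1.04, while Ptprc and Aif1 were not well above background on any array. The 3 tested Csf1r probes gave values from 0.14 to 1.32, and 2 of them were called. Of the other types, 1 of 5 tested keratinocyte markers was called higher (Krt10, by 0.36) and 1 of 3 of endothelium (Vwf, by 1.97). Of Schwann cells and melanocytes, 2 of 7 were (S100b by 2.18 and Pmel by 1.10). Among all features with a symbol, 18.2% were called higher and 20.1% lower. The 1 of 5 keratinocyte and 2 of 11 fibroblast markers lie near the share called higher. Lum was the dimmest fibroblast marker, at -0.42 in controls. Vwf was well above background on 6 of the 8 arrays, and its change was 0.92 with another background correction (normexp). The groups overlapped for Pmel, whose change was 0.50 with normexp. Its call was lost in 12 of the 20 alternative analyses that tested it. Without controls 3 and 6 the counts of higher markers were 5 for leukocytes, 1 for fibroblasts, 0 for keratinocytes, 1 for endothelium and 1 for Schwann cells and melanocytes. The part of these cells in the changes given below was not tested.

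With the mimic, 6 of the 9 tested genes fell (Uhrf1, Ezh2, Dnmt1, Dnmt3a, Suz12 and Bmi1), 1 rose (Ezh1), and Eed and Kdm6b were not called. Over all features, 18.3% were called lower and 15.9% higher, 34.2% in either direction. The median log2 fold change of the 9 genes was -0.56, against 0.02 over all features. The groups did not overlap for 5 of the falling genes and for Ezh1; 19% of all features lay lower without overlap and 15.1% higher. Over the 4 and 4 arrays on which these genes moved, 27 of 28 replication genes fell and 8 of 10 leukocyte markers rose.

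**Figure D1:**
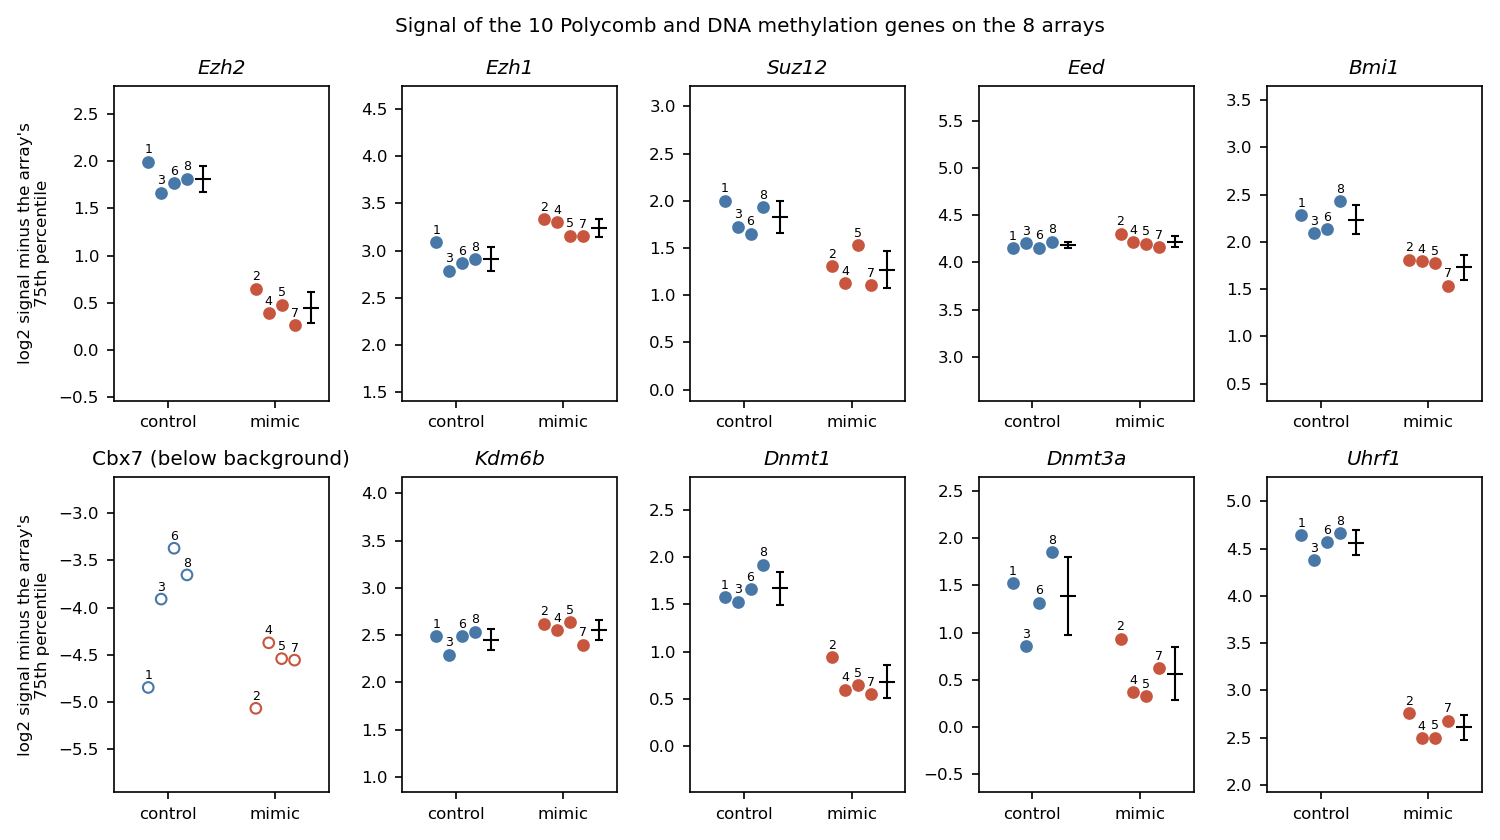
Each panel plots 1 gene's log2 signal minus the array's 75th percentile on the 8 arrays, numbered by sample, in control samples (blue) and with the mimic (red); black bars are the mean and SD of 4 arrays, and every panel spans the same range of log2 units. The 4 mimic arrays lie below all 4 controls for Uhrf1, Ezh2, Dnmt1, Suz12 and Bmi1 and above them for Ezh1, while the hollow points of Cbx7 were not well above background on any array.

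Among the PRC2 enzymes, Ezh2 fell most clearly. Its log2 signal was 2.00, 1.67, 1.77 and 1.82 in controls 1, 3, 6 and 8, a mean of 1.81 ± 0.14 (SD, n = 4). With the mimic it was 0.65, 0.39, 0.48 and 0.26 in samples 2, 4, 5 and 7, a mean of 0.45 ± 0.16 (SD, n = 4). Every mimic array was lower than every control, by a gap several times the spread within a group. The log2 fold change was -1.36 (SE 0.11, 95% interval -1.61 to -1.11, adjusted p = 6.03e-05 by limma), a level 2.58-fold lower. Of the 17093 features, 389 fell by more.

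Ezh1, the other catalytic subunit, rose. Its brightest probe read 3.09, 2.79, 2.87 and 2.91 in controls 1, 3, 6 and 8 and 3.33, 3.30, 3.16 and 3.15 in mimic samples 2, 4, 5 and 7. The groups did not overlap, but control 1 and mimic samples 5 and 7 lay within 0.1 of each other. The log2 fold change was 0.32 (SE 0.09, 95% interval 0.12 to 0.53, adjusted p = 0.0253 by limma), a level 1.25-fold higher. A second probe of Ezh1 gave 0.53 (adjusted p = 0.00724 by limma over all 21964 probes), and the third was not well above background on any array. The rise of the brightest probe is the least stable call among these genes: it was lost in 12 of 21 alternative analyses, where the log2 fold change lay between 0.24 and 0.38. Without controls 3 and 6 it was 0.24 (adjusted p = 0.159).

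Suz12, the subunit that holds PRC2 together, fell less than Ezh2. It read 2.00, 1.73, 1.65 and 1.93 in controls 1, 3, 6 and 8 and 1.31, 1.13, 1.53 and 1.10 in mimic samples 2, 4, 5 and 7. Mimic sample 5 came closest to the controls, and the groups did not overlap. Its change was -0.56 on the log2 scale (SE 0.12, 95% interval -0.84 to -0.28, adjusted p = 0.00918 by limma), a level 1.47-fold lower.

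Eed, which reads the PRC2 mark and stimulates the enzyme, was not called. It read 4.15, 4.20, 4.15 and 4.22 in controls 1, 3, 6 and 8 and 4.30, 4.21, 4.20 and 4.16 in mimic samples 2, 4, 5 and 7. The groups overlapped, and within each group the SD was at most 0.06. The log2 fold change was 0.04 with a 95% interval of -0.12 to 0.20 (adjusted p = 0.705 by limma), so a change of the size seen for Suz12 lies outside the interval.

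Of the PRC1 genes, Bmi1 fell. It read 2.28, 2.10, 2.13 and 2.43 in controls 1, 3, 6 and 8 and 1.81, 1.79, 1.78 and 1.54 in mimic samples 2, 4, 5 and 7. No mimic array reached the lowest control. In the limma fit Bmi1 changed by -0.51 (SE 0.11, 95% interval -0.75 to -0.27, adjusted p = 0.00683 by limma), a level 1.42-fold lower, and a second probe gave -0.42 (adjusted p = 0.0318 by limma over all probes).

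Cbx7 has 1 probe on the array, and it was not well above background on any of the 8 arrays. Its processed intensity was between 6.76 and 19.6, so no level and no change can be given for it.

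Kdm6b, the demethylase that erases the PRC2 mark, was not called. It read 2.49, 2.29, 2.49 and 2.54 in controls 1, 3, 6 and 8 and 2.62, 2.55, 2.64 and 2.40 in mimic samples 2, 4, 5 and 7. The groups overlapped. Its log2 fold change was 0.10 with a 95% interval of -0.11 to 0.30 (adjusted p = 0.426 by limma).

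Uhrf1 showed the strongest fall of the 9 tested genes. It read 4.64, 4.38, 4.57 and 4.66 in controls 1, 3, 6 and 8 and 2.76, 2.50, 2.50 and 2.68 in mimic samples 2, 4, 5 and 7. In processed intensity that is 4006 to 5672 in controls and 1007 to 1538 with the mimic, with no overlap. On the log2 scale the change was -1.95 (SE 0.10, 95% interval -2.18 to -1.73, adjusted p = 1.28e-05 by limma), a level 3.87-fold lower. Its value lies at percentile 0.854 of all log2 fold changes, counted from the lowest. A dimmer probe of Uhrf1 fell by 1.49 (adjusted p = 8.27e-05 by limma over all probes) but was well above background on only 1 of the 4 mimic arrays.

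Dnmt1, the maintenance methyltransferase that Uhrf1 recruits, fell as well. It read 1.57, 1.53, 1.66 and 1.92 in controls 1, 3, 6 and 8 and 0.94, 0.60, 0.64 and 0.55 in mimic samples 2, 4, 5 and 7. Mimic sample 2 was the highest of its group and still below every control. Between groups the log2 change was -0.99 (SE 0.12, 95% interval -1.26 to -0.71, adjusted p = 0.000515 by limma), a level 1.98-fold lower.

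Dnmt3a, the de novo methyltransferase, fell with the widest spread. It read 1.52, 0.86, 1.32 and 1.85 in controls 1, 3, 6 and 8 and 0.94, 0.37, 0.33 and 0.62 in mimic samples 2, 4, 5 and 7. Control 3 lay below mimic sample 2, so the groups overlapped. The log2 fold change was -0.82 (SE 0.22, 95% interval -1.32 to -0.32, adjusted p = 0.0200 by limma), a level 1.77-fold lower. The call was lost without control 1 (adjusted p = 0.0552) and without mimic sample 4 (adjusted p = 0.0576), with slide column as a block (0.0573) and with no filter on dim probes (0.0623).

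**Figure D2:**
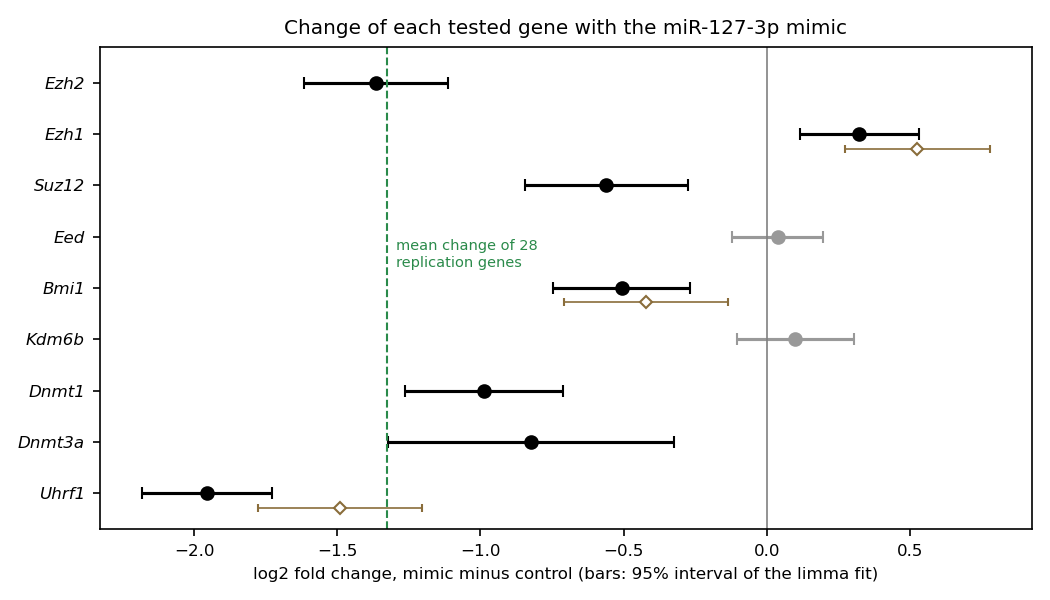
Points are log2 fold changes (mimic minus control) of the 9 tested genes with the 95% interval of the limma fit, black where the adjusted p was under 0.05 and grey otherwise; open diamonds are second probes of the same gene, and the dashed line is the mean change of 28 replication genes, -1.32. Ezh2 lies on that line, Uhrf1 beyond it, the other falling genes between it and 0, and Ezh1 above 0.

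The fall was not shared equally by partners in a complex. For 8 pairs of the 10 genes the change of one was set against that of the other within each array, with exact two-sided permutation tests over all 70 ways to split the 8 arrays 4 and 4; the smallest p this design can give is 0.0286. The pair of Bmi1 and Cbx7 could not be tested. Of the 7 that could, 6 changed unequally, each with an exact p of 0.0286 and 0.0333 after adjustment over the 7 pairs.

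The pair of catalytic subunits parted most. The log2 signal of Ezh2 minus that of Ezh1 was -1.09, -1.12, -1.10 and -1.10 in controls 1, 3, 6 and 8. It was -2.68, -2.91, -2.68 and -2.89 in mimic samples 2, 4, 5 and 7. The controls held this difference within an SD of 0.01, although both genes varied more than that from array to array. The shift between groups was -1.69 (95% interval -1.85 to -1.53), which is 1.69 log2 units from Ezh2 towards Ezh1.

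Ezh2 also fell beyond the PRC2 subunits Suz12 and Eed. Its change was lower than that of Suz12 by -0.80 (95% interval -1.04 to -0.56) and than that of Eed by -1.40 (-1.64 to -1.17). Against Kdm6b, which acts on the same mark in reverse, the difference in change was -1.46 (-1.63 to -1.29). Ezh2 minus Kdm6b was lower on all 4 mimic arrays than on all 4 controls, while Kdm6b itself was not called.

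In the DNA methylation machinery, Uhrf1 fell by more than Dnmt1. The difference in change was -0.97 (95% interval -1.20 to -0.73), and -0.73 with the mean of each gene's probes. Ezh2 fell by more than Dnmt1 as well, by -0.38 (-0.65 to -0.10), but this call was lost when any 1 mimic array was left out. Dnmt1 and Dnmt3a were not told apart: the difference was -0.16 (95% interval -0.58 to 0.26, exact p = 0.4, adjusted p = 0.4), an interval that leaves room for either to fall more. With controls 3 and 6 left out, 15 splits exist, too few for any pair to pass (0 of 7); the 6 shifts kept their direction, and Dnmt1 minus Dnmt3a was 0.06.

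**Figure D3:**
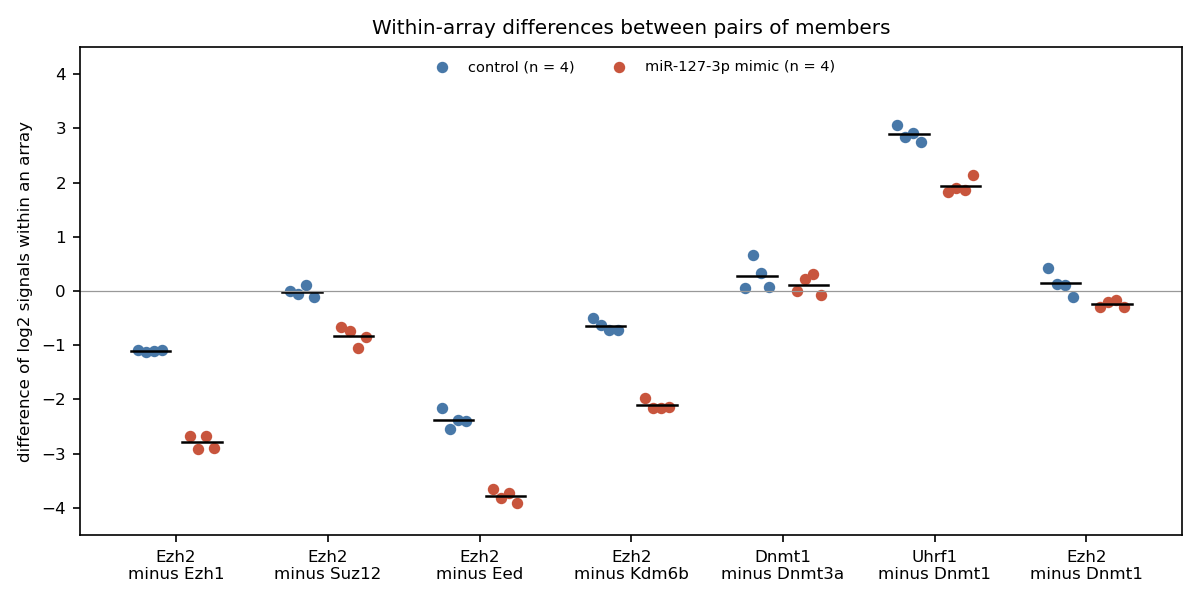
Each point is 1 array and gives the difference of 2 genes' log2 signals on it, for control samples (blue) and mimic samples (red), with a line at the mean of 4 arrays; the height of a pair depends on its probes, and only the step from blue to red is of interest. The step is widest for Ezh2 minus Ezh1 (-1.69), and red and blue points mix only for Dnmt1 minus Dnmt3a.

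Genes of DNA replication fell in the same samples, and the 9 tested genes were set against them. A list of 29 textbook replication genes under E2F control, such as Mcm5, a subunit of the replicative helicase, and Tk1, thymidine kinase, had 28 tested genes; 27 fell (26 without controls 3 and 6), none rose, and Gins3 was not called. Their mean log2 signal was 2.91 ± 0.06 (SD, n = 4) in controls and 1.59 ± 0.13 (SD, n = 4) with the mimic, a change of -1.32. Among the named ones, Gins1 fell by 2.14, Mcm5 by 1.98, Tk1 by 1.92 and Fen1 by 1.48 on the log2 scale. Over all features with a symbol, 20.1% were called lower.

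Ezh2 moved as far as the mean of these genes. The difference between its change and theirs was -0.04 (95% interval -0.19 to 0.11, exact p = 0.6, adjusted p = 0.6), and 12 of the 28 fell by more than Ezh2. Uhrf1 fell further than their mean, by -0.63 (-0.80 to -0.46), and 4 of the 28 fell by more than it. With the mean of each gene's probes in place of the brightest, this difference for Uhrf1 was -0.39, outside that interval. Dnmt1 fell less, by 0.34 (0.15 to 0.52), with 21 of the 28 falling by more, a call lost when any 1 mimic array was left out. Suz12 lagged by 0.76 (0.47 to 1.06) and Bmi1 by 0.82 (0.63 to 1.00). Eed stood 1.36, Kdm6b 1.42 and Ezh1 1.65 above the replication genes. Each of these 7 differences had an exact permutation p of 0.0286, and 0.0367 after adjustment over the 9 genes. For Dnmt3a the difference was 0.50 with a 95% interval of 0.00 to 1.00 (exact p = 0.0857, adjusted p = 0.0964). Without controls 3 and 6 the test has too few splits for any of the 9 to pass (0 of 9), and the 7 differences kept their direction.

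The other genes of each pathway were read from lists of textbook members. Of 8 other PRC2 subunits tested, 4 fell, 2 rose and 2 were not called. Phf19, an accessory subunit that guides PRC2 to chromatin, fell by 2.01 (adjusted p = 0.000142 by limma); with normexp it fell by 0.99 and Ezh2 by 1.15. Epop, another accessory subunit, fell by 1.07 (adjusted p = 0.00295), and the histone-binding subunits Rbbp7 and Rbbp4 fell by 0.62 (adjusted p = 0.00562) and 0.48 (adjusted p = 0.00156); of 2 Rbbp4 probes, 1 was called. Aebp2 and Phf1, accessory subunits too, changed by 0.39 (adjusted p = 0.00419) and 0.58 (adjusted p = 0.00932), both upward. Jarid2 at 0.17 and Mtf2 at 0.03 were not called. Over the 12 tested PRC2 genes the median was -0.22, with 6 lower and 3 higher, beside 20.1% and 18.2% of features with a symbol. Without controls 3 and 6 the count of higher genes was 1 and that of lower genes 6.

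Of 19 other PRC1 subunits tested, 5 fell, 1 rose and 13 were not called. Among the 13 was Bcor, whose 2 tested probes gave 0.15 and 1.07, with 1 of them called higher. With the mean of each gene's probes, the count of higher genes was 2. Kdm2b, the subunit that ties a variant PRC1 to CpG islands, fell by 0.94 (adjusted p = 0.000203 by limma). Pcgf5, which takes the place of Bmi1 in variant complexes, fell by 0.68 (adjusted p = 0.000998), while Pcgf1, another such paralogue, rose by 0.41 (adjusted p = 0.00322). Phc1, of the canonical complex, fell by 0.50 (adjusted p = 0.00528). The ubiquitin ligases at the heart of PRC1, Ring1 and Rnf2, both had log2 fold changes of -0.12 and were not called. The median of the 20 tested genes with Bmi1 was -0.15 with 6 lower in 20, beside 20.1% called lower over all features with a symbol.

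Erasers of the Polycomb marks besides Kdm6b gave 1 fall in 6, beside the 20.1% called lower among features with a symbol. Asxl1, a partner of the H2A deubiquitinase Bap1, fell by 0.54 (adjusted p = 0.00887 by limma). Bap1 itself had a log2 fold change of -0.15 and Mysm1, another H2A deubiquitinase, -0.21. Usp16 had 0.05, Asxl2 0.06 and the Kdm6b paralogue Kdm6a 0.01, with a wide interval of -0.80 to 0.82; none of these 5 was called.

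Partners of the DNA methylation writers mostly fell. Of 8 tested besides Dnmt1, Dnmt3a and Uhrf1, 6 fell, 1 rose and 1 was not called, with a median of -0.74. Among all features with a symbol, 20.1% were called lower and 18.2% higher. Hells, a chromatin remodeller needed for DNA methylation, fell by 1.89 (adjusted p = 9.49e-05 by limma); its probe was well above background on 7 of the 8 arrays, and the change was -1.11 with normexp. Pcna, the replication clamp that also binds Dnmt1, fell by 1.15 (adjusted p = 0.000120), and Ahcy, which clears the by-product of methylation reactions, by 1.24 (adjusted p = 0.000653). Dnmt3b, the other de novo enzyme, fell by 0.93 (adjusted p = 0.00358) and was lower on each of its 3 probes. Uhrf2, the paralogue of Uhrf1, fell by 0.56 (adjusted p = 0.00609), with 1 of its 2 probes called. Trdmt1, which belongs to the same enzyme family but methylates tRNA, fell by 0.30 (adjusted p = 0.0461 by limma), with overlapping groups. It is counted on this list all the same. The gene that rose was Dnmt3l, a cofactor of the de novo enzymes, at 0.48 (adjusted p = 0.0329) with overlapping groups; it was no longer called without any 1 of control 1, control 3, control 8 and mimic samples 2, 4 and 7. With Dnmt1, Dnmt3a and Uhrf1 counted in, 9 of 11 fell; without controls 3 and 6 the count was 8 lower and none higher. Mean log2 signal over the 11 genes was between 2.36 and 2.67 in controls and between 1.56 and 1.79 with the mimic.

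Erasers and readers of DNA methylation showed no common direction. Of 11 tested, 4 rose, 2 fell and 5 were not called, with a median of -0.17. The shares over all features with a symbol were 18.2% called higher and 20.1% lower. Tdg, a glycosylase of active demethylation, fell by 0.61 (adjusted p = 0.00252 by limma) and the reader Mbd3 by 0.43 (adjusted p = 0.00322). Mbd1, a reader as well, rose by 1.60 (adjusted p = 0.00360), but its 3 probes gave values from -0.00 to 1.60 and 1 of them was called. Of the dioxygenases that start demethylation, Tet3 rose by 0.29 (adjusted p = 0.0451), and Tet1 at -0.44 and Tet2 at -0.17 were not called. The count of higher genes was 2 with another background correction (normexp) or with arrays centred on their median, and 1 with no filter on dim probes or without controls 3 and 6. Over the 9 genes well above background on all 8 arrays the median was 0.29.

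Both another repressive system and an activating one were read for comparison. Of 9 tested writers and readers of H3K9 methylation, a separate repressive mark, 8 fell (6 without controls 3 and 6, 5 with slide column as a block), led by the methyltransferase Suv39h1 at -1.40 (adjusted p = 4.04e-05 by limma) and the HP1 proteins Cbx3 at -0.84 (adjusted p = 0.000259) and Cbx5 at -0.64 (adjusted p = 0.000738); Ehmt1, a writer of the mono- and dimethyl forms, fell by 0.55 (adjusted p = 0.00271). Of 12 tested genes of the Trithorax complexes, which write activating H3K4 methylation against Polycomb, 3 fell and 9 were not called, beside the same 20.1%. The 3 were Dpy30 at -0.56 (adjusted p = 0.00101), Wdr5 at -0.60 (adjusted p = 0.00309) and Ash2l at -0.33 (adjusted p = 0.0167), which belong to the core shared by these complexes, while Rbbp5 of the same core had -0.10 and was not called; Setd1b, an enzyme of these complexes, had -0.36 and was not called. Without controls 3 and 6, 5 of the 12 were lower. Kmt2d, which was not called, had 2 tested probes at -0.33 and 0.66, of which 1 was called higher.

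**Figure D4:**
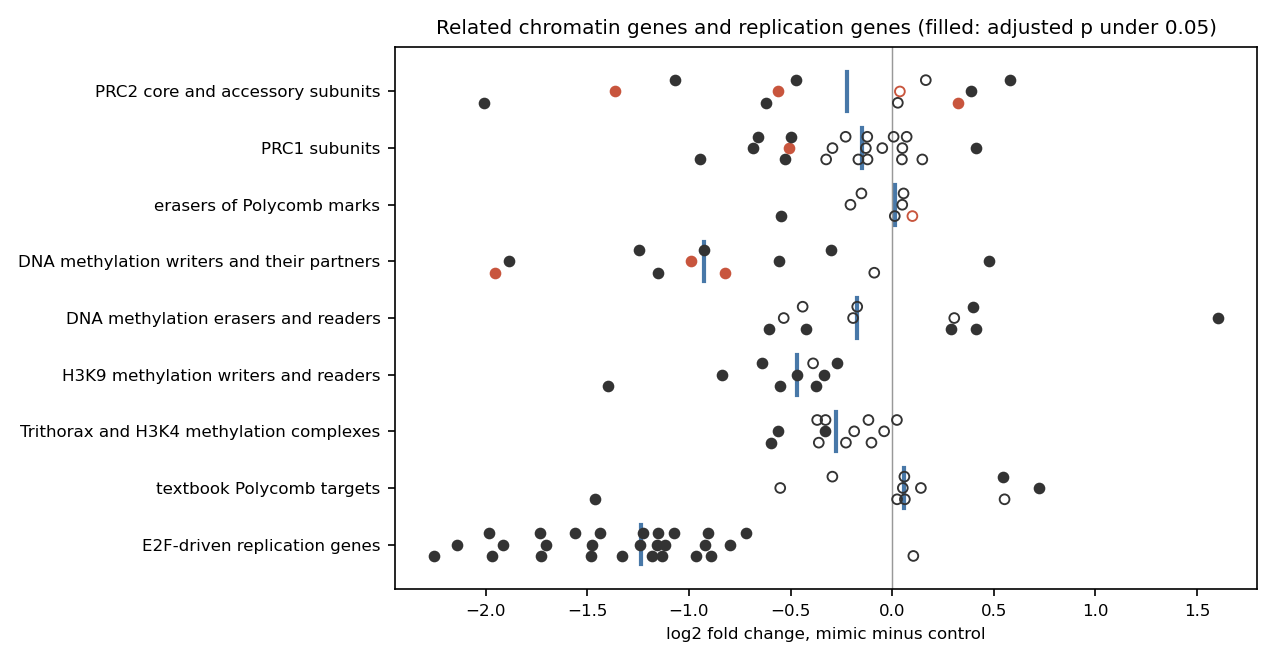
Each point is a tested gene of the list named at left and gives its log2 fold change, mimic minus control; points are filled where the adjusted p was under 0.05, red marks the 9 tested genes of the 10, and blue ticks are list medians. The replication genes lie furthest left (median -1.24), the DNA methylation writers with their partners next (-0.93), and the PRC1 subunits, erasers and Polycomb targets spread around 0.

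Textbook Polycomb targets, genes that PRC2 keeps silent in many tissues, were mostly not well above background. Of 30 listed, 11 could be tested; 15 of the other 19 were not well above background on any array, and 4 were so on 1 to 3 arrays. Of the 11, Gata6, a transcription factor of early development, rose by 0.72 (adjusted p = 0.00480 by limma) and Tbx3 by 0.54 (adjusted p = 0.00920). Cdkn2a, the locus of cell cycle inhibitors that Bmi1 and Ezh2 are known to silence, fell by 1.46 (adjusted p = 0.0187), with overlapping groups, and was not called without control 1 or without mimic sample 4. Wnt5a, at 0.55, was not called. The median of the 11 was 0.06, with 2 higher and 1 lower, beside 18.2% and 20.1% of features with a symbol. Without controls 3 and 6, 3 were higher and none was lower.

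Germline genes that depend on promoter methylation for silence were mostly not measurable either. Of 18 listed, 15 were not well above background on any array and 1 was on fewer than 4. The 2 that were tested, Taf7l at -0.14 and Brdt at 0.12, were not called. The 16 others could not be compared between groups at the sensitivity of this array.

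Position on the slide was examined because samples 1 to 4 lay in row 1 and samples 5 to 8 in row 2. Within row 1 alone (2 control and 2 mimic arrays) 2 of the 9 genes were called lower, and within row 2 alone 3. The log2 fold changes of Ezh2 and Uhrf1 stayed called in each row and in all 21 alternatives, between -1.46 and -1.15 for Ezh2 and between -2.04 and -1.72 for Uhrf1. The 6 genes that fell and Ezh1 kept their sign in all 21.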

How the data were processed

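RNA of 8 samples was read in 1 dye on 8 Agilent arrays of 1 slide. The scanner tables hold an intensity per spot that the authors obtained by Feature Extraction (version 11.5.1.1 per the file headers), background-subtracted and detrended within each array. The deposited value table holds log2 values that equal the log2 processed intensity minus a constant per array (SD of the offset at most 2.78e-07), with column medians of -3.77, -3.67, -3.59, -3.67, -3.67, -3.61, -3.59 and -3.66 for samples 1 to 8 and 75th percentiles near 0, so it is on the log2 scale, not centred by gene and without a ratio; it served as an alternative. GeneSpring 14.9.1 is named in the submitters' processing notes, and its further settings are not given in the sources used here.

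Control and outlier spots were left out, spots of a probe averaged, and each array's 75th percentile subtracted. Of 55681 probes, 28331 were matched by accession to a symbol in a RefSeq table (GRCm38.p6) and 27350 kept the file's name. The arrays had 20767 to 23474 probes well above background each. Probes well above background on at least 4 arrays were tested, 21964 in all, and the brightest stood for its gene. Having only 4 arrays a group limits the precision. The tests were two-sided (lmFit and eBayes of limma 3.58.1, R 4.3.3), after a test on simulated data. Intervals of differences between genes are pooled-variance intervals over arrays, and their p-values come from exact permutation tests. Files have no mean signal column, so normexp (offset 50) used the median signal. The 10 genes, the lists and the tests were chosen with earlier results of these data known. Named were the 10 genes and, of each list, up to 4 others with the smallest adjusted p, and all genes of a list of at most 7; a result that this rule takes is not reported here. Ring1, Rnf2, Tet1, Tet2, Tet3, Dnmt3l, Lum, Rbbp5, Gins3, Ptprc, Aif1, Jarid2, Mtf2, Rbbp7, Phf1, Uhrf2, Trdmt1, Bcor and Kmt2d were named after their values were seen. The 21 alternatives changed background correction, scaling, filter, probe choice, slide position, variance model and the arrays used.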

Additional observations from a re-analysis of the deposited data

Results flagged for a closer look

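Within groups of 4 arrays, 32 sets of values of the tested genes and pairs were examined for an array far from the other 3. Of these sets, 2 had one. Chance alone gives about 1 in 20 such groups. Bmi1 on mimic sample 7 read 1.54, while the other mimic arrays read 1.78 to 1.81, a gap of 0.874 of the group's range. The log2 difference Ezh2 minus Kdm6b was -1.97 on mimic sample 2 and between -2.16 and -2.14 on the other mimic arrays, a gap of 0.899 of the range. Both arrays still lay on the mimic side of all 4 controls.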

How the results depend on the processing

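No paired analysis was possible because the groups share no replicate number. The number of features that differed was 5851; it was 3657 of 36708 with no filter on dim probes, 1759 in slide row 1 alone and 1611 in row 2 alone, where 2 arrays a group remain, and 4320 to 5789 when each array was left out in turn. Of the 10 genes, 2 were lower in row 1 alone and 3 in row 2 alone, and 5 to 6 with an array left out. The count of higher genes (Ezh1) was 0 with normexp, median scaling, no filter, slide column as a block, either row alone and without controls 3 and 6, and 0 to 1 with an array left out (0 without control 3, 6 or 8 and mimic sample 2 or 4). Unequal change in pairs and against replication genes was called in 0 comparisons without controls 3 and 6. Ezh2 minus Dnmt1 and Dnmt1 minus the replication genes were no longer called without any 1 mimic array (adjusted p = 0.0667 and 0.0735, exact permutation tests). Dnmt3a minus the replication genes was called with normexp (0.49, adjusted p = 0.0321, exact) and without control 8 (0.64). Values that changed sign were all of uncalled results. They were Eed (-0.0045 with normexp, -0.0055 in row 2 alone), Dnmt1 minus Dnmt3a (0.0592 without controls 3 and 6), Ezh2 minus the replication genes (-0.0672 to 0.00787 with an array left out, the highest without control 1), Bap1 (0.0668 in row 1 alone), Asxl2 (-0.0391 in row 2 alone, -0.0722 without controls 3 and 6), Kdm6a (-0.00568 with quantile scaling, -0.51 in row 2 alone, -0.37 without controls 3 and 6) and Brdt (-0.0581 without controls 3 and 6). Kdm6a ranged from -0.34 to 0.22 and Brdt from -0.0378 to 0.23 with an array left out. The cause was not tested. The permutation tests of pairs were not run with slide row or column as a block or with a trend in the variance, since they hold no such term; within 1 row they are values with no test.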
